A study of Mus musculus with 2 samples.

Results

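Most subunits of the mitochondrial respiratory chain and of ATP synthase are encoded in the nucleus, and their transcripts were measured here in single cells from mouse tumours. The genes were chosen by symbol: names that begin Nduf followed by a, b, c, s or v and a number, Sdha to Sdhd, and names that begin Uqcr, Cox4 to Cox8 or Atp5. Of 32285 genes in the count matrices 85 matched, and the 79 with at least 200 unique molecular identifiers (UMIs, each standing for 1 captured transcript molecule) over both libraries are called subunit genes. They comprise 36 genes of complex I, 4 of complex II, 8 of complex III, 14 of complex IV and 17 of complex V. Ndufa4 was counted with complex IV, where its protein is now placed. Below the minimum lay Cox6b2 with 167 UMIs, Ndufa4l2 with 95, Cox8b with 57, Cox4i2 with 47, Cox8c with 1 and Cox7b2 with 0, which allows up to 0.0346 CPM (UMIs per 1000000). Just above it lay Cox7a1 with 352 UMIs.

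The study compared regulatory T cells (Tregs), which restrain immune responses, from tumours of C57BL/6 mice aged 8 to 12 weeks. One library carries the genotype label JMJD1CWT (WT) and the other JMJD1CTregcKO (cKO), a Treg-specific knockout of Jmjd1c, which encodes a protein of the JmjC histone demethylase family. Tumours were digested, lymphocytes enriched on Percoll, cells selected with magnetic beads and sorted on fluorescence, and transcript 3' ends were counted with the 10x Genomics system. The labels used here name no tumour model, no number or sex of animals, no Cre driver, no deleted exons and no treatment. With 1 library per group there was no replicate check and no test. All intervals are 95% intervals, exact for a count or for the ratio of a pair of counts, and cover counting error only.

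The WT library held 3905 cell barcodes and 49063944 UMIs and the cKO library 4105 and 37666195, with 2 barcodes in common. After filters 3842 and 4026 cells remained, and the median cell had 9088 UMIs in WT and 6953 in cKO. A UMI of Xist, the RNA of the inactive X chromosome, was found in 97.1% of WT and 0.273% of cKO cells. Y-linked genes gave a UMI in 0 of 3842 WT cells, which allows a share of up to 0.0781%, and in 74.6% of cKO cells. Genotype, sex and library therefore cannot be told apart in any comparison between the libraries. Jmjd1c was at 85.1 and 72.3 CPM in WT and cKO Tregs, which does not check a deletion whose exons are not given.

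Cells were classed by marker UMIs. The Treg rule (6 or more UMIs of Foxp3, Il2ra, Ikzf2 and Ctla4 together and at most 2 of Lyz2 and C1qa) took 3525 WT and 3120 cKO cells. Of these, 799 and 421 with 2 or more UMIs of Mki67 and Top2a, genes of dividing cells, are called cycling Tregs, and 2726 and 2699 are called other Tregs. The myeloid rule (10 or more UMIs of Lyz2 and C1qa) took 103 and 321 cells. The CD8 T rule (3 or more UMIs of Cd8a and Cd8b1) took 213 and 407 cells, but 179 and 193 of them also met the Treg rule. The 34 WT and 210 cKO cells that met neither the Treg nor the myeloid rule are therefore described as CD8-only cells. Among Treg-rule cells 97.0% in WT and 96.0% in cKO had a UMI of Cd3e, part of the T cell receptor complex, and 30.7% and 33.8% had one of Foxp3, the defining transcription factor. Among CD8-only cells 50% in WT and 96.7% in cKO had one of Cd3e, so the makeup of this class differed between the libraries. Lyz2, a lysozyme of macrophages and neutrophils, was at 3.25 and 17.9 CPM in WT and cKO Tregs against 5631 and 9074 CPM in myeloid cells, and Cd8a was at 40.5 and 68.5 CPM in Tregs. The B cell genes Cd79a and Ms4a1 were below 1 CPM in the Tregs of both libraries. The part of these other transcripts in the levels given here was not tested.

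The respiratory chain passes electrons from NADH (complex I) and succinate (complex II) through ubiquinone to complex III, and by cytochrome c to complex IV, which reduces oxygen. Complexes I, III and IV pump protons across the inner mitochondrial membrane, and complex V, the ATP synthase, uses that gradient to make ATP. Complex II is wholly nuclear, whereas the other complexes also hold subunits encoded in mitochondrial DNA. Tregs are known to rely on oxidative metabolism, and loss of complex III in Tregs is known to impair their suppressive function.

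In Tregs the subunit genes summed to 24394 CPM in WT and 23150.0 CPM in cKO. A median Treg spent 2.21% of its UMIs on them in WT and 2.12% in cKO. Since each transcript gives 1 tag at its 3' end, CPM of different genes can be compared without a correction for length. The highest levels belonged to small subunits without a redox centre: Cox8a of complex IV was at 1054 and 1021 CPM in WT and cKO, and Atp5e, the epsilon subunit of ATP synthase, at 1030.3 and 1016 CPM. The highest in complex III was the hinge protein gene Uqcrh at 846 and 734 CPM, in complex I Ndufa13 at 529.6 and 506 CPM, and in complex II the iron-sulfur subunit gene Sdhb at 166 and 199 CPM.

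The sum over the catalytic genes of complex I was smaller than that over its accessory genes, which are more numerous. Its 7 nuclear core genes, which carry the flavin and iron-sulfur clusters or lie next to them, summed to 616 and 587 CPM in WT and cKO Tregs, and the 29 accessory genes to 6158 and 5824 CPM. Ndufs1, the largest iron-sulfur subunit, was the lowest of the complex at 27.3 and 24.2 CPM. Cox7a1 and Cox6a2, isoforms best known from heart and skeletal muscle, were at 3.68 and 2.65 CPM and 0.499 and 2.18 CPM, against 431 and 427 CPM for the ubiquitous Cox7a2 and 290.0 and 231 CPM for Cox6a1.

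Between the libraries the summed level in cKO Tregs was 94.9% (94.6 to 95.2) of WT. Among Tregs with 5000 to 10000 UMIs, a depth range chosen from those that both libraries hold, it was 101.2% (100.6 to 101.8). By complex the cKO level was 94.6% (94.1 to 95.2) of WT for complex I, 93.0% (92.0 to 93.9) for complex III and 92.9% (92.4 to 93.5) for complex IV, and in the narrower depth range 99.6% (98.6 to 100.7), 97.2% (95.5 to 99.0) and 98.6% (97.5 to 99.6). Complex V was at 97.0% (96.5 to 97.6) of WT over all depths and at 105.7% (104.6 to 106.8) in that range. Complex II was at 104.7% (102.1 to 107.3) of WT, at 116.7% (111.4 to 122.3) in that range, and at 98.3% (95.9 to 100.7) when ribosomal protein and mitochondrially encoded genes were left out of the totals. Ribosomal protein genes took 25.1% of UMIs in WT and 20.4% in cKO Tregs. Left out of the totals together with the mitochondrially encoded genes, they moved the sum over all subunit genes to 89.1% (88.8 to 89.4). With the depth range and median ratio scaling together, complex I was at 102.6% (101.5 to 103.7), complex III at 100.1% (98.4 to 101.9) and complex IV at 101.5% (100.4 to 102.6). The direction of the sum and of complexes I, IV and V thus turned with the choice of depth range, scaling or both. The intervals of complexes II and III came to include 100%. In other Tregs of 15000 to 30000 UMIs the sum was at 98.2% (97.4 to 99.0). Complex IV was there at 95.3% (93.8 to 96.8) and complex V at 100.8% (99.3 to 102.3). In other Tregs of 3000 to 7500 UMIs they were at 100.2% (99.5 to 100.9), 98.4% (97.1 to 99.6) and 103.9% (102.6 to 105.2).

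Few single genes differed by much. On the scale of log2(CPM + 5), 1 of the 79 genes was at least 25% higher in cKO Tregs, against 10.8% of the 10370 genes with at least 200 UMIs, and 5 were at least 20% lower, against 13.3%. The same limits, which are the same size on the log scale, hold for every count of higher or lower genes below. The median log2 ratio was -0.06 over the subunit genes and -0.03 over all genes. The higher gene was Cox6a2, which rests on 22 WT and 60 cKO UMIs, and 44 of the 60 lay in 1 cell that also met the CD8 T rule. Without the cells that met both rules its ratio was 124.7% (60.8 to 250.8), and the gene was not counted as higher. The lower genes were Cox7a2l at -0.63, Ndufa9 at -0.37, Ndufa2 at -0.35, Sdhc at -0.33 and Cox6a1 at -0.32. With ribosomal protein and mitochondrially encoded genes left out of the totals 1 was higher and 13 were lower, against 8.34% and 21.4%. With libraries scaled by the median ratio over genes 1 was higher and 2 were lower, against 12% and 11.8%. In the 5000 to 10000 UMI range 4 were higher (Atp5d, Ndufb2, Sdhb and Uqcrc1) and 2 were lower (Cox7a2l and Ndufa2), against 11.7% and 17.4%. By counting error alone, the interval lay above 100% of WT for 14 genes and below it for 46, against 29.1% and 35.8% of all genes, but above it for 27 and below it for 23 in the 5000 to 10000 UMI range, against 21.6% and 28.1%. Without ribosomal protein and mitochondrially encoded genes in the totals it lay above for 6 and below for 64, over all depths. Of the 10370 genes it then lay above for 2250 and below for 4739. With median ratio scaling in the 5000 to 10000 UMI range it lay above for 35 and below for 11. Among the 10370 genes that setting gave 2552 above and 2578 below. Such intervals are wider for genes with fewer UMIs, and the subunit genes and all genes were not matched for UMIs.

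**Figure D1:**
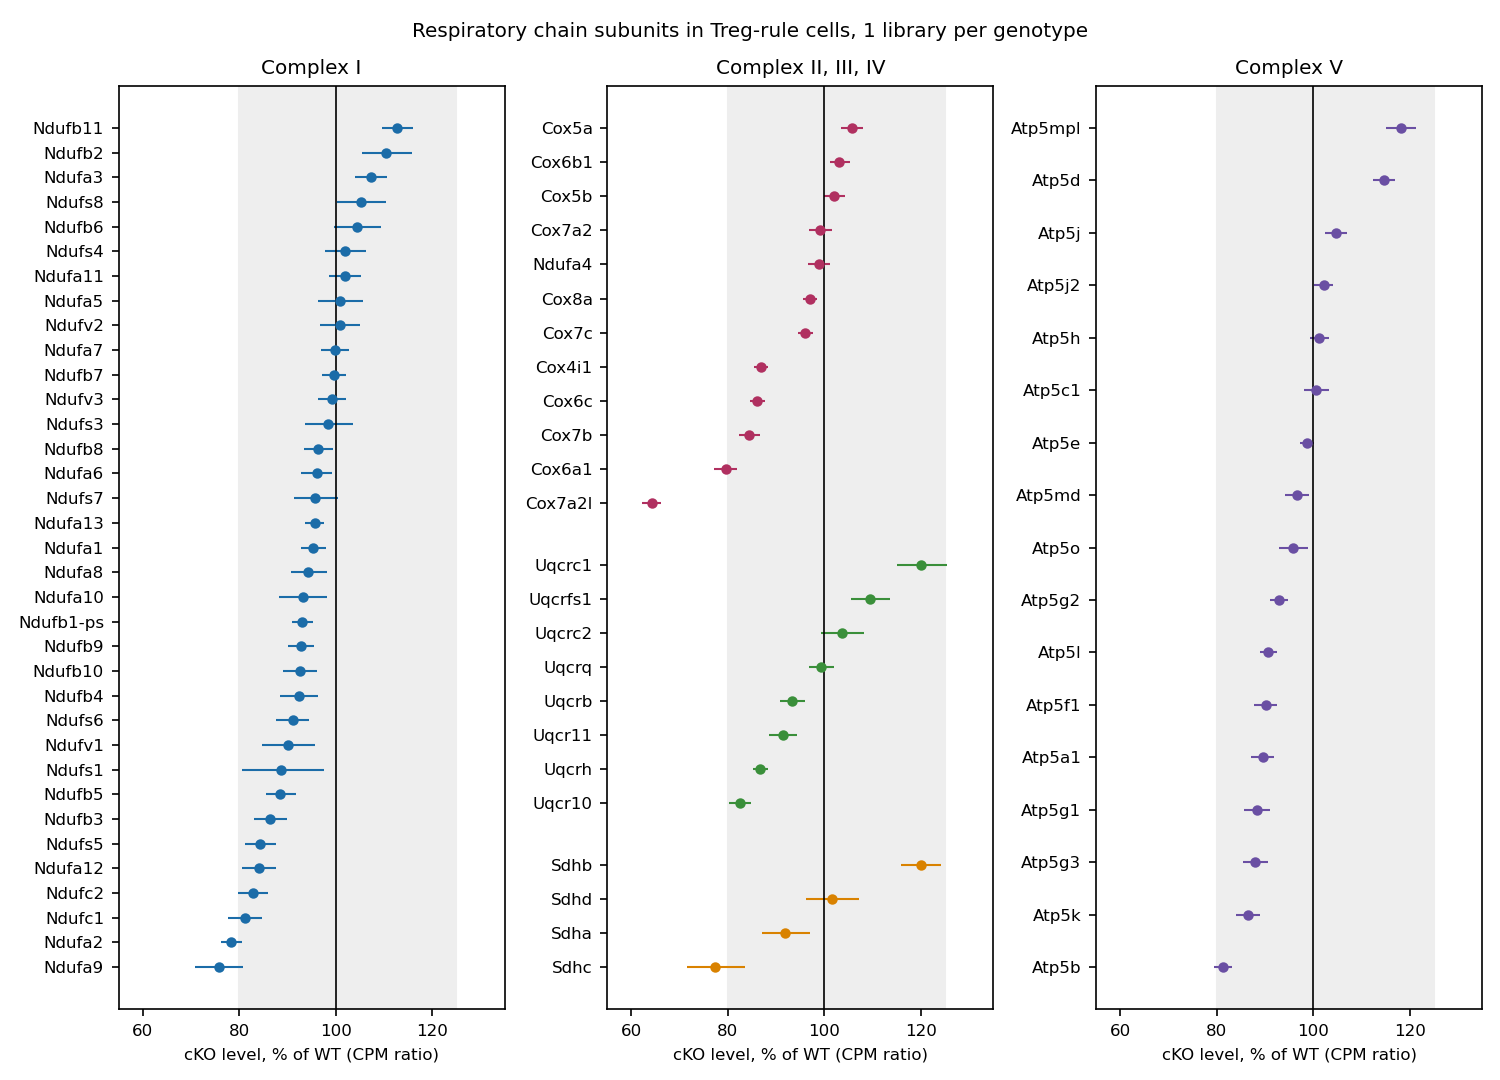
Level of single subunit genes in cKO Tregs as a percent of its level in WT Tregs, by complex, with points for the ratio of CPM, bars for the 95% interval of counting error and a shaded band that spans 20% below to 25% above WT. Cox7a2l, at 64.2%, lies farthest from 100%, and Cox6a2 and Cox7a1, which had few Treg UMIs, are left out.

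Complex I held 2 of the lower genes. Ndufa9, an accessory subunit near the joint of the peripheral and membrane arms (chr6:126821721-126849136, minus strand, mm10), was at 64.5 and 48.8 CPM in WT and cKO Tregs, or 75.7% (70.9 to 80.8). It was also below WT in cycling Tregs (70.9 and 60.3 CPM), other Tregs (60.1 and 44.9 CPM), CD8-only cells (92.2 and 53.3 CPM) and myeloid cells (63.8 and 49.4 CPM). Ndufa2, an accessory subunit of the NADH-oxidising part, was at 332 and 260.3 CPM in Tregs, or 78.3% (76.1 to 80.6). In myeloid cells its levels of 331 and 326 CPM gave 98.5% (90.3 to 107.5), and the difference between the classes was not tested. On the other side stood the membrane arm genes Ndufb11, at 256 and 289 CPM or 112.7% (109.5 to 116.0), and Ndufb2, at 98.3 and 109 CPM or 110.5% (105.4 to 115.8). Ndufb11 is X-linked, as are Ndufa1 at 95.3% of WT and Cox7b at 84.5%. The part of sex in these values was not tested. Among the core genes Ndufs8, which carries iron-sulfur clusters, was at 96.4 and 101 CPM, or 105.3% (100.3 to 110.4). Ndufb1-ps, at 429 and 399 CPM, carries a pseudogene suffix in its symbol, but its promoter is listed in RefSeq under Ndufb1. How reads shared with near-identical copies were counted was not checked.

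Complex II, the succinate dehydrogenase, also works in the tricarboxylic acid cycle. Sdhb (chr4:140961203-140979193, plus strand), its iron-sulfur subunit, was at 166 and 199 CPM in WT and cKO Tregs, or 119.9% (115.8 to 124.2). It was above WT in cycling Tregs at 122.9%, other Tregs at 127.2%, CD8-only cells at 131.4% and myeloid cells at 117.5%, and its ratio in Tregs ran from 112.6 to 139.8% over the alternative settings. Sdha, the flavoprotein, was at 80.3 and 73.8 CPM, or 91.9% (87.0 to 97.1). Of the membrane anchors, Sdhc was at 45.9 and 35.5 CPM, or 77.4% (71.6 to 83.5), and Sdhd at 78.0 and 79.2 CPM, or 101.5% (96.2 to 107.2). In other Tregs Sdhc was at 80.9% (73.4 to 89.1) over all depths, at 79.0% (66.0 to 94.5) in cells of 3000 to 7500 UMIs, at 80.8% (65.4 to 99.3) in cells of 15000 to 30000 and at 91.9% (78.7 to 107.1) in cells of 5000 to 10000, where the interval includes 100%.

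In complex III the larger core genes and the small subunit genes lay mostly on opposite sides of 100%. Uqcrc1 (chr9:108936633-108949623, plus strand), a core protein on the matrix side, was at 111 and 133 CPM in WT and cKO Tregs, or 120.1% (115.0 to 125.4), with a range of 112.7 to 133.9% over the alternative settings. Uqcrc2, the other core protein, was at 124 and 128 CPM, or 103.7% (99.4 to 108.2), and Uqcrfs1, the Rieske iron-sulfur protein, at 157 and 172 CPM, or 109.5% (105.5 to 113.7). These 3 genes summed to 110.7% (108.1 to 113.3) of WT, to 103.9% (101.5 to 106.4) without ribosomal protein and mitochondrially encoded genes in the totals, and to 118.0% (113.0 to 123.3) in the 5000 to 10000 UMI range. Of the small subunits Uqcrh was at 86.7% (85.3 to 88.2), Uqcr10 at 82.5% (80.3 to 84.8), Uqcr11 at 91.3% (88.5 to 94.2), Uqcrb at 93.3% (90.7 to 95.9) and Uqcrq at 99.4% (96.8 to 102.0).

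Complex IV held the subunit gene with the lowest ratio in Tregs. Cox7a2l (chr17:83501918-83517330, minus strand) is a gene linked to supercomplexes of complexes III and IV, which were not measured here. It is counted in the complex IV sums of 6995 and 6502 CPM in WT and cKO Tregs, and no sum without it was taken. Its level was 327 and 210.0 CPM in WT and cKO Tregs, or 64.2% (62.2 to 66.2). It was lower in cKO in each class, at 286 and 190.3 CPM in cycling Tregs, 355 and 217 CPM in other Tregs, 367 and 279.6 CPM in CD8-only cells and 268 and 141 CPM in myeloid cells. Its ratio in Tregs stayed within 60.2 to 65.4% over the alternative settings. Myeloid and CD8-only cells are not named in the labels as targets of the deletion. Genotype, sex and library cannot be told apart here, and the cause of the lower Cox7a2l level was not tested. Cox6a1 was at 290.0 and 231 CPM, or 79.5% (77.2 to 82.0), and the abundant Cox4i1 and Cox6c were at 86.9% (85.4 to 88.4) and 86.1% (84.6 to 87.6). Cox5a and Cox5b, subunits on the matrix side, were at 105.7% (103.3 to 108.1) and 102.0% (99.9 to 104.3).

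**Figure D2:**
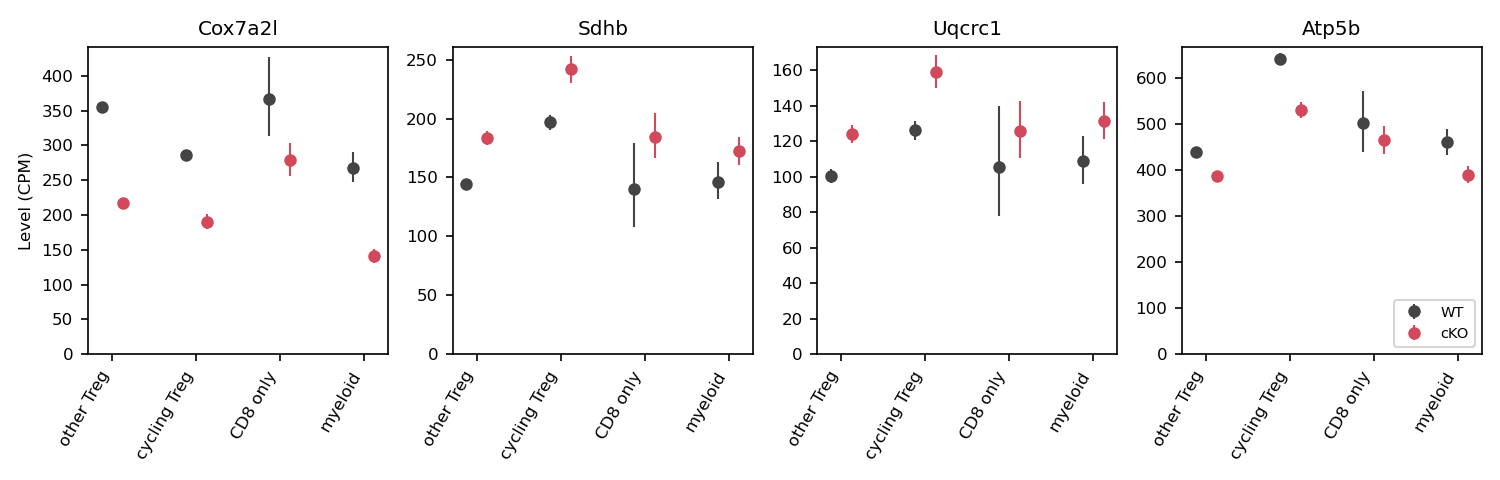
Levels in CPM of Cox7a2l, Sdhb, Uqcrc1 and Atp5b in other Tregs, cycling Tregs, CD8-only cells and myeloid cells of the WT and cKO libraries, with bars for the 95% interval of counting error. Cox7a2l is lower and Sdhb and Uqcrc1 are higher in cKO in each class, although the ratio of Uqcrc1 in CD8-only cells, 119.4% (87.3 to 166.2), has an interval that includes 100%.

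In complex V the small membrane-associated subunit gene Atp5mpl was at 315 and 373 CPM in WT and cKO Tregs, or 118.2% (115.2 to 121.2), and Atp5d, the delta subunit, at 563 and 645 CPM, or 114.7% (112.5 to 116.9). Atp5d was at 99.4% (92.1 to 107.3) in myeloid cells, and the difference between the classes was not tested. Atp5b, the catalytic beta subunit, was at 521 and 424 CPM, or 81.3% (79.5 to 83.1), and Atp5c1, the gamma subunit of the rotating stalk, at 348 and 350.2 CPM, or 100.6% (98.1 to 103.2). In other Tregs Atp5b was at 88.2% (85.7 to 90.7) over all depths and at 94.8% (90.6 to 99.3) in cells of 5000 to 10000 UMIs. The 5 genes of the F1 head summed to 97.8% (96.9 to 98.7) of WT but to 110.4% (108.5 to 112.2) in Tregs of that depth range. The 4 genes of the peripheral stalk summed to 99.0% (97.8 to 100.1), to 106.6% (104.2 to 109.0) there and to 100.9% (99.7 to 102.1) with median ratio scaling. The 3 c-ring genes were at 90.6% (89.3 to 92.0) and at 99.1% (96.3 to 101.9) there. In other Tregs of 15000 to 30000 UMIs the F1 head was at 99.2% (96.8 to 101.7). In those of 3000 to 7500 UMIs it was at 107.5% (105.3 to 109.8).

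Promoters are shown for 3 of the genes counted as lower in cKO Tregs (Cox7a2l, Ndufa9 and Cox6a1), for Sdhb and Uqcrc1, which had ratios above 100% in each class, and for the 3 c-ring genes, which encode the same mature protein. They are RefSeq windows on GRCm38.p6, the build that mm10 names, from 250 bases before to 50 bases after the listed transcript start, on the strand of the gene. Capitals mark matches on either strand to GCATGCGC (the core of the NRF1 motif), CCGGAAG (a core bound by ETS factors such as GABP) or AANATGGCG (YY1). The windows are chr17:83514284-83514583 (minus strand) for Cox7a2l, chr6:126849095-126849394 (minus) for Ndufa9, chr5:115348909-115349208 (minus) for Cox6a1, chr4:140961021-140961320 (plus) for Sdhb, chr9:108936398-108936697 (plus) for Uqcrc1, chr11:96075582-96075881 (minus) for Atp5g1, chr15:102670998-102671297 (minus) for Atp5g2 and chr2:73911277-73911576 (minus) for Atp5g3.
Cox7a2l: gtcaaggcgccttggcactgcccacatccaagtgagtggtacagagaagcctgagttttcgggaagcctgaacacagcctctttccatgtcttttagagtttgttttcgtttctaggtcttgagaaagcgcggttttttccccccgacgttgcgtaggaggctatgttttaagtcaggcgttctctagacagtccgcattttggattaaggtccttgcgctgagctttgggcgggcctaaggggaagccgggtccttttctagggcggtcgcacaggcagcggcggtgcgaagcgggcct
Ndufa9: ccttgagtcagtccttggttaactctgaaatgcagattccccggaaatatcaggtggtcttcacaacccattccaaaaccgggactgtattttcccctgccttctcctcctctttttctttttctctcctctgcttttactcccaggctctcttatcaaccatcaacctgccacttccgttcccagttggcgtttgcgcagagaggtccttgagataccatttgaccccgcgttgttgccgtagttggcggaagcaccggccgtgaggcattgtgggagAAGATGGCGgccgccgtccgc
Cox6a1: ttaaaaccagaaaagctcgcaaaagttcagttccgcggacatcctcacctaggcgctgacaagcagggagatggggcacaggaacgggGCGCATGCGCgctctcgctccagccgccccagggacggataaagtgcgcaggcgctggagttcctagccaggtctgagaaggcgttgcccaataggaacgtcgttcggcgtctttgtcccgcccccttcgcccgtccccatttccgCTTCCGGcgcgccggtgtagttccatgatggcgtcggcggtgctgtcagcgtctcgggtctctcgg
Sdhb: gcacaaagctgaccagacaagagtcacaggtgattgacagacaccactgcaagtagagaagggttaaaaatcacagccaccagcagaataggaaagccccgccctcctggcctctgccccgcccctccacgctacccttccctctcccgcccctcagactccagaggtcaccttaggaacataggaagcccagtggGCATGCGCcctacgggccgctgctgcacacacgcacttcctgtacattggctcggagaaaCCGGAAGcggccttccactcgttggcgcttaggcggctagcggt
Uqcrc1: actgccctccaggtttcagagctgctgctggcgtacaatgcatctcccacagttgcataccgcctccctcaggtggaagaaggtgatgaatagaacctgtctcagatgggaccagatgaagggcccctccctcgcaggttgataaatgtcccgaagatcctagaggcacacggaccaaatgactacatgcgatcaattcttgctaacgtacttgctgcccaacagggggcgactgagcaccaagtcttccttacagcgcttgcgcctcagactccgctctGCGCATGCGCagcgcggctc
Atp5g1: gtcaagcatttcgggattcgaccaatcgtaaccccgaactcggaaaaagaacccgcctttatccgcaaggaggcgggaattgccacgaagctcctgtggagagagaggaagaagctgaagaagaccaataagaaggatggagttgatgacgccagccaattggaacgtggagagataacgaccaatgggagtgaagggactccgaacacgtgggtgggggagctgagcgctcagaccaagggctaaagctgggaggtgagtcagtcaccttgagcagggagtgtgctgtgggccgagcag
Atp5g2: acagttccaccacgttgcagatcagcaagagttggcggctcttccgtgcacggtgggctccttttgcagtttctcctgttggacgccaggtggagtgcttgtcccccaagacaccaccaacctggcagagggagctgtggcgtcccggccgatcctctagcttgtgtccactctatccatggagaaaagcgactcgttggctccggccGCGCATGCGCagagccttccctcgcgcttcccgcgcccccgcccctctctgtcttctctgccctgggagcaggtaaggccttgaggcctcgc
Atp5g3: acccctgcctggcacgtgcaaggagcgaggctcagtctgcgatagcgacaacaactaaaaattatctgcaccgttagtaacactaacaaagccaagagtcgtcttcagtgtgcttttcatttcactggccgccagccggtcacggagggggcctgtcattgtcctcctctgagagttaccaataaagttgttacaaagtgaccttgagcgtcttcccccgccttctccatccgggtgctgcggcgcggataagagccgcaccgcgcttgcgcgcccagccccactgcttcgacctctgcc

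Sdhb held 1 NRF1 core and 1 ETS core, Cox6a1 held 2 overlapping NRF1 cores, 1 on each strand, and 1 ETS core, and Ndufa9 held 1 YY1 motif. Uqcrc1 and Atp5g2 each held 2 overlapping NRF1 cores, 1 on each strand. NRF1 cores thus lay in the windows of genes with ratios on either side of 100%. None of these 3 motifs was found in the windows of Cox7a2l, Atp5g1 and Atp5g3. The Cox7a2l window lies wholly within the gene coordinates given above, so bases before their 5' end were not searched. A promoter was listed for 66 of the 79 subunit genes. The NRF1 core was in 10 of the 66 (15.2%) and in 2.80% of all 27025 listed promoters, and the full palindrome, this core with GC added at its 5' end, in 5 (7.58%) and 0.977%. The ETS core was in 16 (24.2%) and 9.12%, and YY1 in 8 (12.1%) and 2.51%, of which 6 belong to complex I and 2 to complex V. GGGCGG, a motif of Sp1, was in 26 (39.4%) and 35.9%. A match describes the letters of a window, not binding.

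Within each library, cells with more UMIs had a larger share of them from the subunit genes. In other Tregs the median share was 1.90% in WT cells with 3000 to 5000 UMIs and 2.63% in those with 20000 to 30000, and 1.92% and 2.59% in cKO. Cycling Tregs of 20000 to 30000 UMIs had 2.64% in WT and 2.73% in cKO. Other Tregs with 15000 to 30000 UMIs (336 WT and 164 cKO cells) were then set against those with 3000 to 7500 UMIs (1221 and 1622 cells), a split chosen after this relation was seen. The sum in the deeper cells was 127.6% (126.7 to 128.5) in WT and 125.1% (124.0 to 126.1) in cKO of that in the shallower ones. Complex I was at 124.5% and 123.8% in WT and cKO, complex II at 128.5% and 134.8%, complex III at 120.4% and 118.7%, complex IV at 127.0% and 123.0% and complex V at 133.5% and 129.5%. In both libraries 41 of the 79 genes were at least 25% higher in the deeper cells, against 11.1% of all genes, and 0 were lower, against 17%. Cox5a was at 169.7% and 167.4% and the c-ring genes together at 144.6% and 145.7%, whereas Cox7a2l was at 93.4% and 87.6% and Ndufa6, an accessory subunit of complex I, at 76.2% and 88.5%. The median log2 ratio was 0.42 in WT and 0.35 in cKO over the subunit genes, 0.34 and 0.47 over 80 cytosolic ribosomal protein genes, 0.25 and 0.36 over 78 mitochondrial ribosomal protein genes, and -0.09 and -0.08 over all genes. Cd8a was detected in 14.3% of the deeper WT and 25.6% of the deeper cKO cells, against 0.983% and 1.66% of the shallower ones. The part of barcodes that hold more than 1 cell was not tested.

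**Figure D3:**
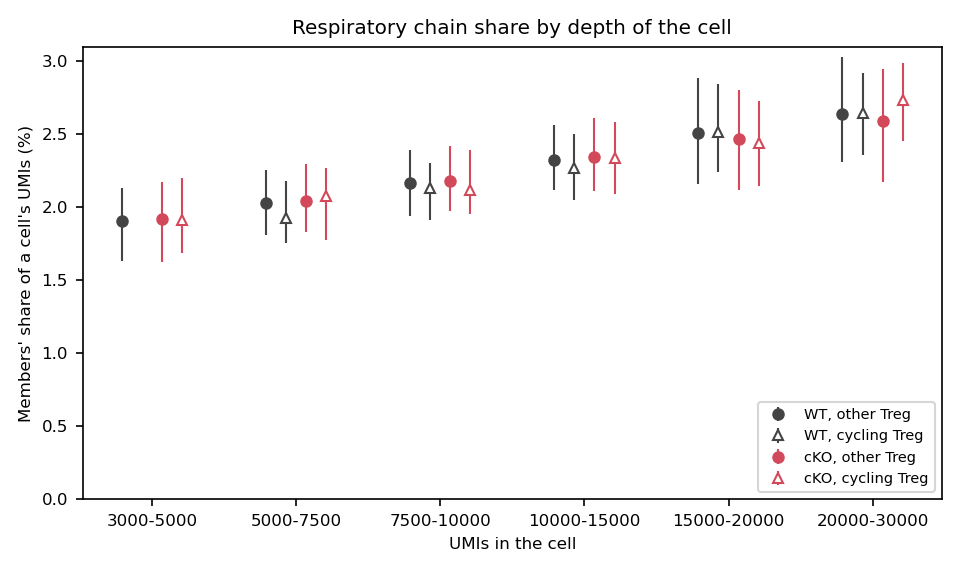
Median share of a cell's UMIs from the 79 subunit genes, with bars from the 25th to the 75th percentile, in other and cycling Tregs of both libraries grouped by the UMIs of the cell. In other Tregs the share goes from 1.90% in WT and 1.92% in cKO at 3000 to 5000 UMIs to 2.63% and 2.59% at 20000 to 30000, and cycling Tregs lie close to other Tregs of the same depth.

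Over all depths cycling Tregs had a larger sum than other Tregs, 116.0% (115.6 to 116.5) in WT and 117.1% (116.5 to 117.8) in cKO, but among cells with 5000 to 10000 UMIs it was 98.6% in WT and 102% in cKO. In both libraries 25 of the 79 genes were at least 25% higher in cycling Tregs, against 12.5% of all genes, and 1 was lower, against 11.8%. The 25 comprised 10 genes of complex I, 2 of complex II, 1 of complex III, 5 of complex IV and 7 of complex V. The median log2 ratio was 0.22 in WT and 0.23 in cKO. Ndufc1, a small membrane arm subunit, was at 180.0 CPM in cycling and 117 CPM in other Tregs of WT, and at 149.7 and 104 CPM in cKO, or 154.5% and 144.5%. Ndufa12, an accessory subunit of the peripheral arm, was at 149.1% and 167.6% and Uqcr10, a small complex III subunit, at 149.5% and 148.6%. The lower gene was Ndufa6, at 175 CPM in cycling and 240.2 CPM in other Tregs of WT, and at 166 and 219 CPM in cKO, or 72.9% and 75.7%. Uqcrh at 84.2% and 85.6% and Cox7a2l at 80.4% and 87.8% were also below 100%.

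Depth differed between these classes: the median cycling Treg had 19409 UMIs (WT) or 14966 (cKO) and the median other Treg 7896 or 6256. Among cells with 5000 to 10000 UMIs (141 cycling and 1519 other Tregs in WT, 99 and 1391 in cKO), 0 subunit genes were at least 25% higher in both libraries, against 3.04% of all genes, and 0 were lower, against 2.09%. After thinning each cell to 4100 UMIs before classing, the sum in cycling Tregs was 110.0% of other Tregs in both libraries. Thinning equalises the counts, but cells of different original depth stay in the classes.

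**Figure D4:**
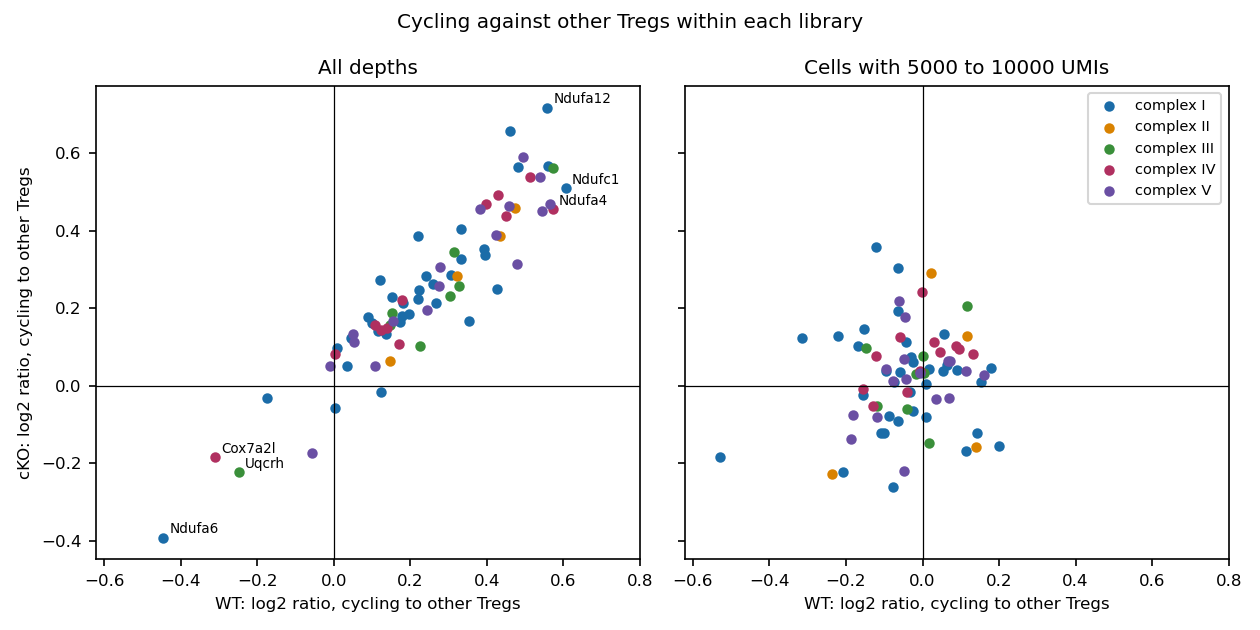
Log2 ratio of cycling to other Tregs for single subunit genes, on log2(CPM + 5), with WT on the x axis and cKO on the y axis, for cells of all depths (left) and cells with 5000 to 10000 UMIs (right), coloured by complex and without Cox6a2 and Cox7a1. Over all depths most genes lie above 0 in both libraries, with medians of 0.22 and 0.23, and in the narrower range they lie around 0.

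Myeloid cells had a smaller sum than Tregs, 88.2% (87.4 to 89.0) in WT and 94.1% (93.5 to 94.7) in cKO, and 94.3% and 98.0% where myeloid cells of 5000 to 20000 UMIs were compared with Tregs of 5000 to 10000. These ranges did not match depth, with medians of 14844 and 12781 UMIs in myeloid cells and 7031 and 6694.5 in Tregs. The sum was 21508 and 21780 CPM in all myeloid cells, and 25755 and 25295 CPM in other Tregs of 15000 to 30000 UMIs. In both libraries 1 subunit gene was at least 25% higher in myeloid cells, against 17% of all genes, and 9 were lower, against 30.7%, so both shares lay below the background. The higher gene was Sdhc, at 69.0 and 58.1 CPM in WT and cKO myeloid cells against 45.9 and 35.5 CPM in Tregs, or 150.2% and 163.7%. Ndufa4 was at 236 and 242 CPM against 423 and 418 CPM, or 55.8% and 57.8%, and Uqcrh at 64.4% and 61.9%. The other lower genes were Ndufa11, Ndufa13, Ndufb7, Ndufb11, Uqcrc2, Atp5d and Atp5g2. Between the libraries, the sum in cKO myeloid cells was 101.3% (100.2 to 102.3) of WT, but 96.5% without ribosomal protein and mitochondrially encoded genes in the totals. There 3 genes were at least 25% higher in cKO (Atp5j, Cox7a1 and Ndufa3, against 13.5%) and 4 lower (Cox6a2, Cox7a2l, Ndufa9 and Ndufs1, against 17.2%). A UMI of Cd3e was found in 53.4% of WT and 27.1% of cKO myeloid cells, and the part of T cell transcripts in these values was not tested.

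CD8-only cells had a sum of 101.4% (99.5 to 103.3) in WT and 108.1% (107.1 to 109.1) in cKO relative to Tregs that did not meet the CD8 T rule, but 96.5% (94.7 to 98.4) and 107.6% (106.6 to 108.6) when Cox6a2 was left out of the sum. In both libraries 2 genes were at least 25% higher, Cox6a2 and Ndufb10, against 6.82% of all genes, and 1 was lower, Cox7a1, against 13.7%, although for WT a lower level of Cox7a1 is not shown. Ndufb10, a membrane arm subunit of complex I, was at 231 and 220.2 CPM in WT and cKO CD8-only cells against 169.7 and 155 CPM. Cox7a1 had 0 UMIs in CD8-only cells, which allows up to 6.59 CPM in WT and 1.52 CPM in cKO, against 3.30 and 2.54 CPM in Tregs outside the CD8 T rule. Between the libraries the sum was 100.2% (98.2 to 102.3) of WT, and 104.8% (102.7 to 107.1) without Cox6a2, with 16 genes at least 25% higher and 10 lower in cKO, against 29.3% and 32.3%. A UMI of Cd3e was found in 50% of the 34 WT and 96.7% of the 210 cKO cells, and one of Siglech, a gene known from plasmacytoid dendritic cells, in 52.9% and 3.33%. The part of these shares in the values of the class was not tested.

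**Figure D5:**
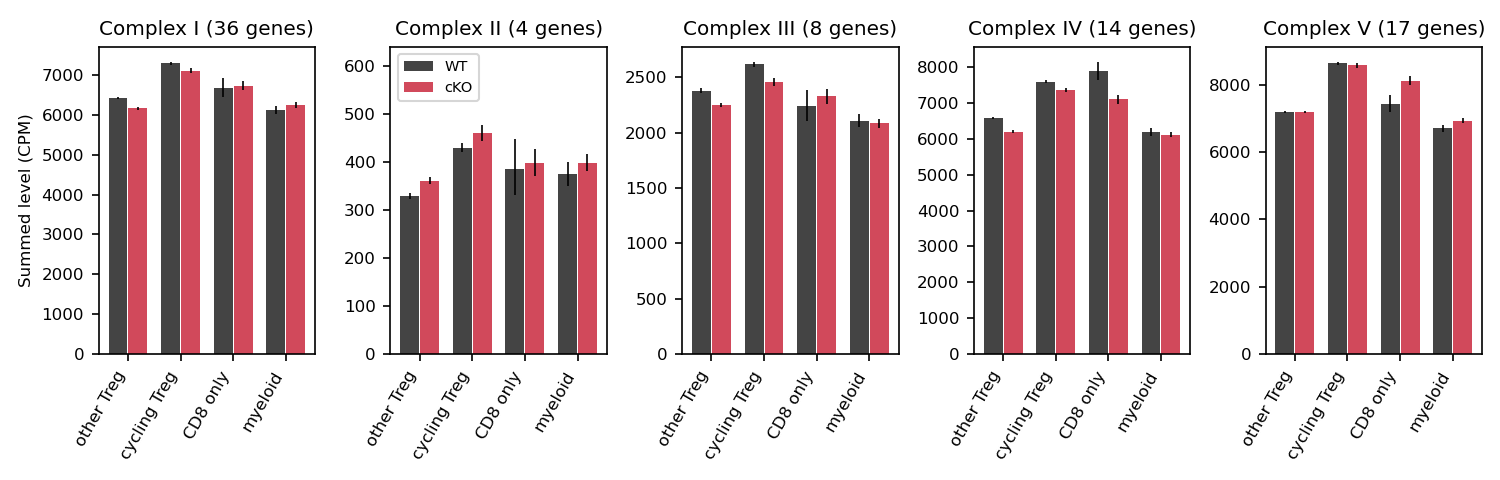
Summed level in CPM of the genes of each complex in other Tregs, cycling Tregs, CD8-only cells and myeloid cells of the WT and cKO libraries, with bars from 0 and the 95% interval of counting error. Cycling Tregs have the highest bars in complexes I, II, III and V over all depths, and the WT bar of CD8-only cells in complex IV, 7894 CPM from 34 cells, includes 1195 CPM of Cox6a2.

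Cox6a2 was concentrated in few cells. Of its 749 UMIs in kept WT cells 725 lay in 26 cells with 3 or more of them, and of 364 in cKO cells 342 lay in 12. In these cells Cox6a2 was at 2028 CPM in WT and 2471 CPM in cKO, against 260.2 and 238 CPM for Cox6a1, the reverse of the order in Tregs. The same cells held 1928 and 1517 CPM of Siglech, 1144 and 1300.3 CPM of Tcf4 and 1673 and 1611 CPM of Ccr9, genes chosen after this pattern was seen, and 36.4 and 21.7 CPM of Cd3e against 543 and 697 CPM in Tregs. Of the 26 and 12 cells, 16 and 7 met the CD8 T rule. The 16 WT cells held 544 Cox6a2 UMIs, and Cox6a2 in CD8-only cells was at 1195 and 115 CPM in WT and cKO. In the remaining cells of the CD8 T rule the gene had 1 UMI in 197 WT and 3 UMIs in 400 cKO cells.

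The c-ring of ATP synthase is built from 1 mature protein encoded by 3 genes that differ in their targeting peptides. In WT Tregs Atp5g2 gave 51.7% (51.2 to 52.1) of the c-ring UMIs, Atp5g3 25.2% (24.8 to 25.6) and Atp5g1 23.1% (22.8 to 23.5). In cKO Tregs the shares were 53.0% (52.4 to 53.6), 24.5% (24.0 to 24.96) and 22.6% (22.1 to 23.0). Atp5g1 had a larger share in myeloid cells, 33.0% (31.0 to 35.0) in WT and 32.4% (31.1 to 33.8) in cKO. It also had a larger share in deeper than in shallower other Tregs, 24.8% against 20.6% in WT and 26.9% against 18.6% in cKO. Relative to WT, Atp5g1 in cKO Tregs was at 88.3% (85.7 to 91.0), Atp5g2 at 93.0% (91.1 to 94.9) and Atp5g3 at 88.0% (85.5 to 90.6).

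The 13 subunits encoded in mitochondrial DNA summed to 24662 and 24729 CPM in WT and cKO Tregs, or 100.3% (99.97 to 100.6). The nuclear sum relative to them was 94.6% (94.2 to 95.1) of WT, and 98.8% among Tregs with 5000 to 10000 UMIs. Of the 13, 1 was at least 25% higher in cKO, mt-Co1 of complex IV at 3821 and 4827 CPM, against 10.8% of all genes, and 6 were lower, against 13.3%, with a median log2 ratio of -0.28. The lowest was mt-Atp8 of complex V at 46.0 and 18.0 CPM, or 39.0% (35.3 to 43.1). By complex, the mitochondrially encoded transcripts were at 85.5% of WT for complex I, 98.8% for complex III, 109.0% for complex IV and 91.7% for complex V. In cycling against other Tregs over all depths they were at 105.3% and 113.7% in WT and cKO, against 116.0% and 117.1% for the nuclear genes.

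Genes around the chain were counted in the same way between cKO and WT Tregs, against the same 10.8% higher and 13.3% lower. Of 41 assembly factor genes 1 was higher, Surf1 of complex IV assembly at 33.1 and 43.6 CPM, and 5 were lower, the lowest Ndufaf2 of complex I assembly at 25.9 and 18.4 CPM. Of 17 tricarboxylic acid cycle genes 0 were higher and 1 was lower, Idh3g, a subunit of isocitrate dehydrogenase, at 80.2 and 50.3 CPM. Of 18 protein import genes 0 were higher and 2 were lower, the lowest the outer membrane receptor gene Tomm70a at 40.6 and 29.9 CPM. Of 12 regulators 4 were higher, the highest the transcription factor gene Myc at 16.4 and 31.0 CPM, and 1 was lower, Tfam, which packages mitochondrial DNA, at 39.1 and 29.9 CPM. Mitochondrial ribosomal protein genes numbered 2 higher and 5 lower of 78, and cytosolic ones 0 higher and 34 lower of 80. Of chain components outside the symbol rule, cytochrome c (Cycs) was at 260.2 and 342 CPM, or 131.4% (127.9 to 135.1), and Ndufab1, the acyl carrier protein of complex I, at 134 and 126 CPM, or 93.6% (89.7 to 97.6).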

How the data were processed

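The deposited values are UMI counts for each gene in each barcode, not normalized, and the submitters' processing notes name Cell Ranger 5.0.1 and mm10. Which annotation release was used, whether intronic reads were counted and whether doublets were removed is not stated there. Barcodes with at least 500 genes and under 10% mitochondrial UMIs were kept, and no doublet caller was run. Classes followed the marker rules given above, and the 79 genes, the classes and the other lists were chosen with earlier results of these data known. UMIs were summed per library and class, divided by all UMIs of the class (CPM) and compared by the ratio with an exact binomial interval. For calls a pseudocount of 5 CPM was added and limits of 25% higher and 20% lower were set. Genes named in depth were the 5 highest and 5 lowest in Tregs, the highest of each complex, those with the largest ratios between classes, and the c-ring and tissue-restricted isoform genes. Others are named for their role in the complex. Sums and counts cover all 79 genes, but 1 gene is not reported singly here and is not drawn in the figures. Gene coordinates come from GENCODE M21 and promoters from RefSeq. Alternatives changed the totals, cell filters, class rules, depth range, weighting of cells, pseudocount and minimum count. Leaving out the highest 5% of cells by UMIs, thinning the cycling class, the totals applied to single complexes, the sums without Cox6a2 and the split by depth were chosen after seeing the data. The ratio and its interval were tested on simulated data. Python 3.11.15, NumPy 2.4.6, SciPy 1.17.1, pandas 2.3.3 and Matplotlib 3.10.9 were used.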

Additional observations from a re-analysis of the deposited data

Results flagged for a closer look

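In some results cKO lay above WT in one cell class and below it in another, and none of these differences between classes was tested. Cox6a2 in cKO was at 3.82% of WT in myeloid cells and at 9.64% in CD8-only cells, against 435.9% in Tregs. Of the 60 cKO Treg UMIs 44 lay in 1 cell that also met the CD8 T rule, and without such cells the Treg value was 124.7% (60.8 to 250.8). Of the 38 WT myeloid UMIs 36 lay in 1 cell, against 3 UMIs in cKO myeloid cells. The sum over the subunit genes in cKO was at 101% of WT in myeloid cells against 94.9% in Tregs. Complex V was at 103% in myeloid cells and at 109% in CD8-only cells, against 97.0% in Tregs. Among Tregs with 5000 to 10000 UMIs the sum was at 101.2% and complex V at 105.7%, above WT as in myeloid cells. Without ribosomal protein and mitochondrially encoded genes in the totals, the sum was at 96.5% in myeloid cells and 89.1% in Tregs. Complex V was then at 98.5% (96.6 to 100.4) and 91.1% (90.6 to 91.6). Siglech had a UMI in 52.9% of WT and 3.33% of cKO CD8-only cells.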

How the results depend on the processing

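The summed cKO level in Tregs, 94.9% of WT, was 89.1% without ribosomal protein and mitochondrially encoded genes in the totals, 96.8% with median ratio scaling, 94.1% without cells that met the CD8 T rule, 96.8% without cycling Tregs, 95.6% with cells weighted equally and 101% (101.2%), the other direction, in cells with 5000 to 10000 UMIs. The count of 5 lower genes became 13 with those totals, 2 with median ratio scaling, 3 without cycling Tregs, 2 in the depth range and 3 without the highest 5% of cells by UMIs. The count of 1 higher gene became 0 without CD8 T rule cells, 2 without cycling Tregs, 4 in the depth range, 0 with equal weights and 0 among genes with at least 2000 UMIs. Without cycling Tregs 10.7% of all genes were higher and 12.6% were lower. For the settings on CD8 T rule cells, equal weights, the highest 5% of cells and 2000 UMIs this share was not counted. Cox6a2, at 435.9% of WT in Tregs, turned to 57.6% in the depth range and was 124.7% without CD8 T rule cells and 210.4% with equal weights. With the reduced totals the cKO sum relative to WT was 92.7% in cycling Tregs, 97.5% in CD8 T rule cells and, turned, 96.5% in myeloid cells. Those totals gave 119% in WT and 121% in cKO for cycling against other Tregs, 107% and 118% for CD8 T rule cells against Tregs (103.9% and 108.6% with all UMIs), and 81.2% and 87.9% for myeloid cells against Tregs. Without cells that met several rules, cKO relative to WT was 96.5% in cycling Tregs and, turned, 100.2% in CD8 T rule cells (99.1% with them), CD8 T rule cells were at 101% of Tregs in WT, myeloid cells at 95.4% in cKO, and the ratio of nuclear to mitochondrially encoded transcripts at 96.0%. In the depth range the cKO sum relative to WT was, turned, 104% in cycling Tregs, 94.4% in CD8 T rule cells and, over 5000 to 20000 UMIs, 105% in myeloid cells. There cycling Tregs were at 98.6% of other Tregs in WT, turned, and 102% in cKO, CD8 T rule cells at 111% and 104.0% of Tregs, myeloid cells of the wider range at 94.3% and 98.0%, and the nuclear to mitochondrial ratio at 98.8%. Thinned cycling Tregs were at 110.0% in WT and 110.0% in cKO. Of 110 settings for single genes 85 moved the ratio by less than its interval. The causes were not tested. No paired analysis was possible because each group has 1 library. Depth limits genes near 1 CPM, and the 34 WT CD8-only cells limit every value of that class.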
